A study of Caenorhabditis remanei with 28 samples.

Results

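The comparison described here sets L1 larvae of a control-selected population of Caenorhabditis remanei against L1 larvae of its ancestor, and asks what laboratory culture without stress selection changed in gene expression. It rests on 12 of the 28 libraries of the series, namely replicates 3 to 8 of both populations (n = 6 and 6). These are the replicate numbers that both populations have, and they were matched by number. The ancestor was the strain PX443, and the control-selected population was derived from it. Heat-selected (n = 8) and oxidative-selected (n = 6) populations of the same origin, and control replicates 1 and 2, serve as reference levels and enter only the fits named as including them. All worms grew at 20 °C on the Escherichia coli strain OP50. Embryos were obtained by bleaching and kept for 20 h in buffer without food, hatched larvae were filtered at 20 µm, and poly-A RNA came from pools of about 100000 larvae. The series' design text places all libraries at 20 °C, but the shared protocol also names a warmer incubation of embryos, and titles carry the temperature for ancestor and control libraries only. The control regime is represented by 1 population, so selection by the culture and drift cannot be told apart, and the labels do not say whether libraries came from separate cultures, so that every p-value reflects only how these libraries spread.

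C. remanei has males and females, outcrosses by necessity and carries much genetic variation, so that allele frequencies in a laboratory population can shift by selection or by chance. Larvae that hatch without food stop development at L1, a state that nematodes can hold for long periods, and expression at this stage reflects starvation as well as age. In a population sample, a change in expression can come from the frequency of regulatory alleles, and reads of a diverged allele can fail to align to the reference. In pooled larvae, fewer cells of a type and less RNA per cell cannot be told apart either.

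The files give genes by FL81 identifiers and do not pair them with names, and 0 of 25337 identifiers matched a RefSeq gene table of the species. Genes are therefore given by identifier, no function is stated for them, and markers of the larval stage were not checked. Gene counts per library ranged from 3270394 to 15755610, and 3 counts, the lowest level given weight here, corresponded to between 0.190 and 0.917 CPM (counts scaled to a common library size). The design could not show a difference in a lone library measure, since the smallest p that 6 pairs allow (0.03125) becomes 0.25 when adjusted over the 8 measures examined. Unaligned reads made up 23.8% ± 6.28 (SD, n = 6) of ancestor and 27.1% ± 5.28 of control reads, and reads outside genes 16.22% ± 4.61 and 17.2% ± 3.54 (two-sided exact sign-flip permutation test over 6 pairs, p = 0.469 and 0.688). The share of low-quality alignments was lower in the control in 6 of 6 pairs, at that smallest p (exact sign-flip permutation test, adjusted p = 0.25), but it was at most 0.000742% of reads.

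The populations were not the main axis on which these libraries differed. The leading principal component of log2 CPM held 42.6% of the variance, and population accounted for 3.69% of it. The next component held 22.8%, with 0.0802% accounted for by population and 65.3% by the division between replicates 3 to 6 and replicates 7 and 8. On that component ancestor replicate 7 scored -46.1 and control replicate 8 scored -41.5, far from the other 10 libraries, which scored between -13.5 and 24.8. Component 3, with 8.01% of the variance, separated the populations. Ancestor libraries scored between 2.02 and 21.7 on it and control libraries between -19.03 and -3.60, without overlap, and population accounted for 73.7%.

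**Figure D1:**
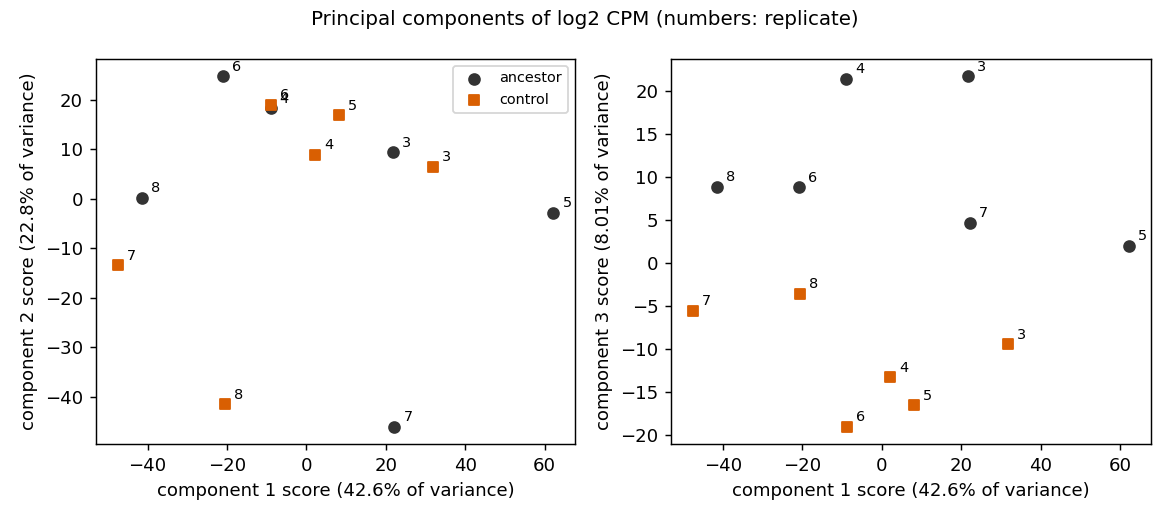
Scores of the 12 libraries on principal components 1 and 2 (left) and 1 and 3 (right) of log2 CPM, with ancestor libraries as circles, control libraries as squares and replicate numbers beside them. Populations mix on components 1 and 2 and separate on component 3, where ancestor scores are all above 0 and control scores all below 0.

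The nearest library in log2 CPM belonged to the same population for 8 of 12 libraries and carried the same replicate number for 0 of 12. Ancestor replicate 8 and control replicate 7, the libraries with the most gene counts, were each other's nearest (r = 0.985 across genes). The SD of a gene over the 6 libraries had a median of 0.42 log2 units in the ancestor and 0.34 in the control, and it was larger in the control for 32.8% of 10972 genes. Within replicates 3 to 6 the medians were 0.37 and 0.24. These spreads are descriptions without a test, and libraries of unequal depth enter both.

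With replicate number as a block, 3 of 10972 genes differed between control and ancestor larvae, or 0.0273% of those tested (edgeR quasi-likelihood test, p adjusted by Benjamini-Hochberg, threshold 0.05). FL81_14812 was higher in the control (0.00911% of genes), and FL81_05087 and FL81_17361 were lower (0.0182%). An unadjusted p under 0.05 was found for 626 genes (5.71%), 381 higher and 245 lower, and the next gene after the 3 had an adjusted p of 0.140 (edgeR). The count depended on the model, with 1 gene (0.00911%), FL81_14812, when the block was left out, 36 with DESeq2 and 65 with replicates 3 to 6 alone. Leaving out 1 replicate number gave between 1 (number 3 or 4) and 15 genes (number 7).

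**Figure D2:**
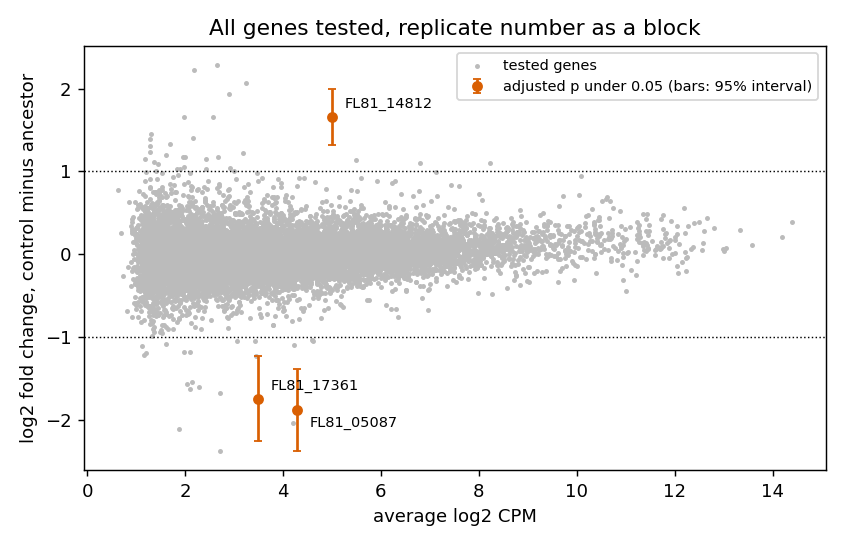
Log2 fold change of control over ancestor against average log2 CPM for each gene tested, with the genes past the threshold in orange with their 95% intervals. Dotted lines mark 2-fold, and the 3 intervals lie beyond them.

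Most genes were measured closely enough to bound their difference. The 95% interval of the log2 fold change lay within 2-fold in either direction for 9717 of 10972 genes (88.6%), and half-widths had a median of 0.45 log2 units. That share was 67.1% in the 2743 least abundant genes, at a median of 3.45 CPM, and 98.3% in the 2743 most abundant, at a median of 98.2 CPM. The fitted difference reached 2-fold for 54 genes, 32 higher and 22 lower, and the whole interval lay beyond 2-fold for 5. The libraries of the 2 populations did not overlap for 29 genes (0.264% of those tested), of which 15 were higher and 14 lower in the control. The difference had one direction in all 6 pairs for 447 genes (4.07%), 230 higher and 217 lower.

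The 100 genes with the highest mean CPM held between 30.1% and 44.7% of gene counts per library, and 0 of them passed the threshold (edgeR), with 4 at an unadjusted p under 0.05, close to the shares over all genes (0.0273% and 5.71%). Each of the 100 intervals lay within 2-fold, and the fitted log2 differences ran from -0.45 to 0.55. Their median was 0.13 and 83 were above 0, against a median of -0.00134 and 49.7% above 0 over all genes tested. The share of gene counts that the 100 held was higher in the control in 3 of 6 pairs. Its mean paired difference was 1.31 percentage points (exact sign-flip permutation test, p = 0.5), and 0.01 without replicate number 5.

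FL81_14812 was the gene with the smallest p and the one that rose. Its levels in ancestor replicates 3 to 8 were 15.9, 16.21, 10.4, 24.8, 9.69 and 16.6 CPM. In control replicates 3 to 8 they were 37.3, 67.2, 41.4, 63.8, 33.9 and 48.2 CPM. Every one of these control libraries lay above every ancestor library, and the ratio within a pair was between 2.34 and 4.14. The log2 fold change was 1.66 (SE 0.16, edgeR adjusted p = 0.00162), from 15.6 ± 5.44 to 48.6 ± 13.9 CPM (SD, n = 6). The difference was of like size in both classes of replicate, at 1.65 (SE 0.18) in replicates 3 to 6 and 1.61 (SE 0.56) in replicates 7 and 8. It was not seen in control replicates 1 and 2, which have no ancestor partner. With all 28 libraries scaled together they held 21.3 and 6.37 CPM of FL81_14812, against 10.4 to 27.1 CPM in the ancestor, and with them added, without the block, the call was lost (1.38, edgeR adjusted p = 0.649).

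FL81_05087 fell. Ancestor replicates 3 to 6 held 40.7, 47.4, 45.4 and 42.9 CPM, and ancestor replicates 7 and 8 held 3.77 and 7.90 CPM. Control replicates 3 to 6 held 9.19, 11.99, 10.1 and 7.71 CPM, and control replicates 7 and 8 held 2.56 and 2.49 CPM. The control was lower in 6 of 6 pairs, but the populations overlapped, because the last 2 ancestor libraries lay among or below the control libraries of lower number. The log2 fold change was -1.89 (SE 0.23, edgeR adjusted p = 0.0109), and without the block it was -2.13 (edgeR adjusted p = 0.671).

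FL81_17361 fell in the same way. Its levels were 27.2, 17.9, 21.01, 15.9, 9.15 and 9.26 CPM in ancestor replicates 3 to 8. They were 9.44, 5.90, 6.14, 7.49, 2.73 and 1.08 CPM in control replicates 3 to 8. Both populations were lower in replicates 7 and 8 than in replicates 3 to 6, and the highest control library lay just above the lowest ancestor library. The log2 fold change was -1.75 (SE 0.24, edgeR adjusted p = 0.0255) with the block and -1.67 (edgeR adjusted p = 0.631) without it. The calls of FL81_05087 and FL81_17361 were also lost without replicate number 3, 4 or 5, where adjusted p was between 0.0542 and 0.148 (edgeR), with the direction kept.

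Among genes that did not pass, FL81_06792 had the smallest p of those fitted higher in the control. Its ancestor libraries held between 0.538 and 2.46 CPM, from 4 to 24 counts. Its control libraries held between 4.55 and 13.1 CPM, from 19 to 153 counts, without overlap. The fitted log2 difference was 2.22 (SE 0.40, edgeR adjusted p = 0.177). With control replicates 1 and 2 added and without the block, FL81_06792 was the only gene called (2.32, edgeR adjusted p = 0.0159). Its highest levels lay in heat larvae. With all 28 libraries scaled together, heat replicates 3 to 6 held 135 to 174 CPM, and heat replicates 1, 2, 7 and 8 held 3.19 to 6.38 CPM. In that fit heat larvae differed from the ancestor by 5.62 (SE 0.82, edgeR adjusted p = 0.0006) and from the control by 3.31 (SE 0.62, edgeR adjusted p = 0.00575). FL81_20368 and FL81_24805, known from an earlier account of these data, were fitted lower in the control at -0.76 (SE 0.13) and -1.10 (SE 0.24), with edgeR adjusted p of 0.140 and 0.303. FL81_20368 stood at 102 ± 17.8 CPM in the ancestor and 60.1 ± 7.81 CPM in the control, lower in 6 of 6 pairs and without overlap. All 3 of these genes passed in replicates 3 to 6 alone (edgeR adjusted p = 0.0215 for FL81_06792, 0.0246 for FL81_20368 and 0.00493 for FL81_24805) and with DESeq2 and the block (DESeq2 adjusted p between 0.00011 and 0.00815). These fits reuse libraries of the main test, and all 3 genes were named from these same data, so they are not separate support. FL81_24805 stood at 33.0 ± 9.94 CPM in ancestor replicates 3 to 6 and at 12 ± 2.84 CPM in the matching control libraries (SD, n = 4), whereas replicates 7 and 8 held 14.8 and 10.5 CPM in the ancestor and 7.77 and 10.6 CPM in the control.

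**Figure D3:**
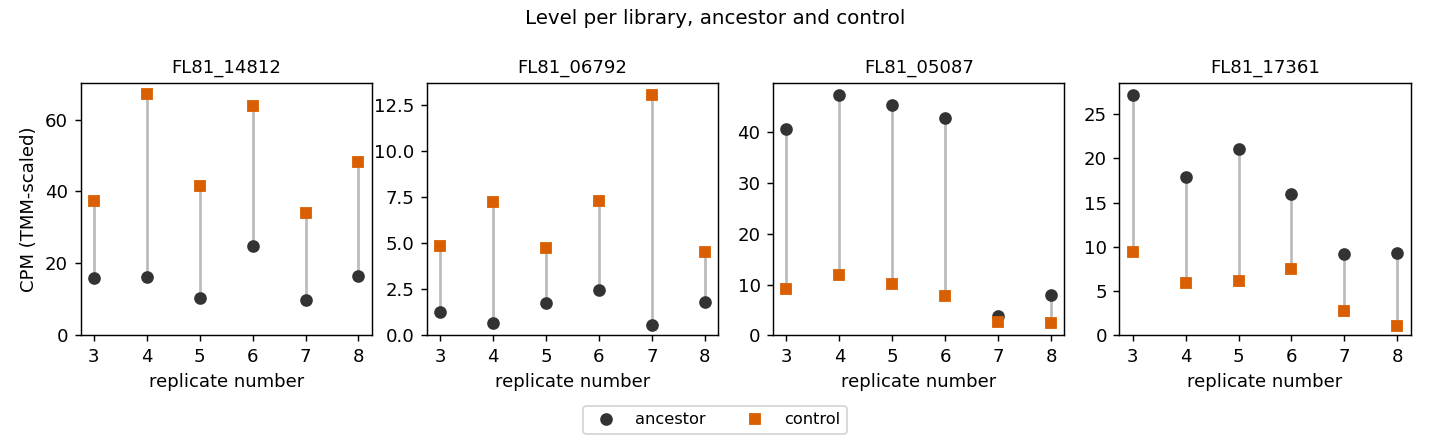
CPM of 4 genes in each ancestor (circle) and control (square) library by replicate number, with lines joining libraries of the same number. FL81_14812 and FL81_06792 are higher in the control in every pair and FL81_05087 and FL81_17361 lower, and ancestor levels of FL81_05087 fall from above 40 CPM in replicates 3 to 6 to below 8 CPM in replicates 7 and 8.

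Replicates 7 and 8 had been described before as lying apart from replicates 3 to 6, so the comparison was repeated within each class. On component 2, only ancestor replicate 7 and control replicate 8 lay far from the rest. Ancestor replicate 8 scored 0.21 there and control replicate 7 scored -13.5, so these libraries did not form 1 group. In replicates 3 to 6, 65 of 10914 genes differed (0.596%), 32 higher (0.293%) and 33 lower (0.302%) in the control, and the 3 genes above were among them (edgeR, n = 4 and 4). A difference of 2-fold or more was fitted for 22 of the 32 and 26 of the 33. In replicates 7 and 8, 3 of 12778 genes differed (0.0235%), all higher in the control, and none of them was among the 65 or the 3 (edgeR, n = 2 and 2). Replicates 7 and 8 leave 1 residual degree of freedom, and the median half-width of an interval was 1.38 log2 units there against 0.46 in replicates 3 to 6.

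In the pairs that had no part in choosing them, the 65 genes kept their direction about as often as genes at large. Averaged over pairs 7 and 8, the difference had the same direction for 38 of 65 (58.5%), against 57.8% of all 10914 genes. It had the same direction in both of these pairs for 15 (23.1%, against 19.5% of all genes) and the opposite direction in both for 12 (18.5%, against 12.5%). Of the 32 genes called higher, 16 were also higher in pairs 7 and 8 (50%, against 58.0% of all genes fitted higher), and their median difference was -0.04 log2 units there, against 1.28 in replicates 3 to 6. Of the 33 called lower, 22 were also lower (66.7%, against 57.6% of all genes fitted lower), with medians of -0.29 and -1.41. Over all genes fitted higher and all genes fitted lower, the medians in pairs 7 and 8 were 0.07 and -0.06. Of the 48 genes that differed at least 2-fold, 6 did so in the same direction in pairs 7 and 8. A difference of that size in the fitted direction was thus more frequent there among the 65 (9.23%) than among all genes (1.01%, 110 of 10914). Of the 65, 8 passed the filter on low counts through the libraries of 1 population alone, 7 through the ancestor and 1 through the control. Over all 10914 genes tested, 17 did so (0.156%). These 8 were kept in the counts above, so the comparison of 9.23% with 1.01% includes genes that entered through 1 population. FL81_24498, with at most 9 counts in any library of replicates 7 and 8, is among the 6.

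**Figure D4:**
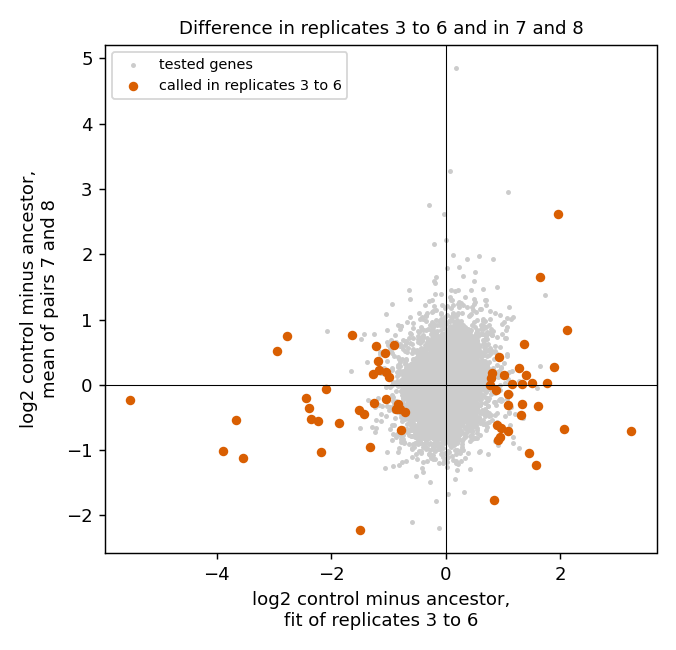
Log2 difference of control minus ancestor in the fit of replicates 3 to 6 (horizontal) against the mean of pairs 7 and 8 (vertical) for each gene tested, with the 65 genes called in replicates 3 to 6 in orange. Most orange points lie near 0 on the vertical axis and on both sides of it, with 38 of 65 on the side of their fitted direction.

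The 4 genes with the largest differences in replicates 3 to 6 varied in how far they kept them in replicates 7 and 8. They are the leading 2 in each direction, taken after the calls were known. FL81_20828 held 15.8, 15.4, 19.6 and 17.1 CPM in control replicates 3 to 6 and 1.12 to 2.30 CPM in the ancestor libraries of the same numbers (fitted log2 difference 3.25, SE 0.27). No test of replicates 3 to 6 is given, because only the control libraries carried it past the filter there. In the fit of all 6 pairs, where 3 ancestor and 4 control libraries reached the cutoff, FL81_20828 was fitted at 2.28 (SE 0.60, edgeR adjusted p = 0.512). In control replicates 7 and 8 it stood at 0.769 and 0.325 CPM, from 9 and 3 counts, and the ancestor held 0.673 and 1.51 CPM. It was high in no other library of the series, where control replicates 1 and 2 held 3.28 and 2.55 CPM and the heat and oxidative libraries 0.444 to 6.27 CPM. FL81_17333, the other gene that rose, went from 1.38 to 4.11 CPM in the ancestor to between 6.93 and 12.9 CPM in the control (2.12, SE 0.31, edgeR adjusted p = 0.00570), and its control level remained above the ancestor in pairs 7 and 8 (5.29 against 4.04 and 8.66 against 3.31 CPM).

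FL81_24498 was highest in the ancestor libraries of low number. It held 14.5, 25.9, 16.04 and 31.2 CPM in ancestor replicates 3 to 6, from 80 to 190 counts, and 1.19 to 1.71 CPM in the matching control libraries (fitted log2 difference -3.90, SE 0.27), and only the ancestor libraries carried it past the filter, so no test is given. In replicates 7 and 8 it stood at 0.269 and 0.678 CPM in the ancestor, from 2 and 9 counts, and at 0.171 and 0 CPM in the control. With all 28 libraries scaled together, heat replicates 3 to 6 held 7.03, 8.34, 3.21 and 4.93 CPM of FL81_24498. Heat replicates 1, 2, 7 and 8 held at most 0.911 CPM. Control replicates 3 to 6 held 1.28 to 1.85 CPM on that scaling, and control replicates 1, 2, 7 and 8 at most 0.424 CPM. Higher levels in replicates 3 to 6 were thus not particular to the ancestor. FL81_16508 was rarer and was also highest in these ancestor libraries, with 14, 14, 19 and 37 counts in ancestor replicates 3 to 6, 0 and 3 counts in ancestor replicates 7 and 8, and 0 or 1 count in each of the 8 control libraries. Its heat libraries held 0 to 3 counts and its oxidative libraries none. FL81_24498 and FL81_16508 were too rare in most of the 12 libraries to enter the test of all 6 pairs. Ancestor replicates 7 and 8 thus lacked the levels that set ancestor replicates 3 to 6 apart in FL81_05087, FL81_24498 and FL81_16508. The labels give the same strain for all 6, and batch, culture and preparation were not tested as sources because the labels give none.

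The difference between the populations was itself tested between the replicate classes, and 2 of 10972 genes (0.0182%) passed (edgeR, interaction term with the block, adjusted p under 0.05). The classes were drawn because replicates 7 and 8 had been described, from these same data, as lying apart, so these p-values do not come from a division fixed in advance. An unadjusted p under 0.05 was found for 278 genes (2.53%). Both genes were higher in control replicates 7 and 8. FL81_22811 held 38.3 and 41.7 CPM in these libraries, against 1.28 to 4.92 CPM in control replicates 3 to 6. Its 6 ancestor libraries held 0.673 to 3.61 CPM, so that the rise belonged to 2 control libraries. The log2 difference between the classes was 4.87 (SE 0.56, edgeR adjusted p = 0.0399). FL81_01123 held 74.3 and 92.9 CPM in control replicates 7 and 8, 4.59 to 8.94 CPM in control replicates 3 to 6 and 4.33 to 12.7 CPM in the ancestor, with a difference between the classes of 3.08 (SE 0.38, edgeR adjusted p = 0.0399). Without any 1 of the numbers 3, 4, 5 and 6, 0 genes passed (edgeR), with 121 to 538 at an unadjusted p under 0.05. The fitted differences without one of them were 4.67 to 5.01 for FL81_22811 and 2.86 to 3.19 for FL81_01123.

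A further gene of this kind, FL81_12212, was found with replicates 7 and 8 alone. It held 88.1 and 108 CPM in control replicates 7 and 8, from 1032 and 1000 counts. In the other 10 libraries it stood at 0.481 to 1.71 CPM, from 3 to 12 counts, so that the filter on low counts kept it out of the test of all pairs. In replicates 7 and 8 the log2 fold change was 6.27 (SE 0.65, edgeR adjusted p = 1.09e-17), and the fits for FL81_22811 and FL81_01123 there were 5.03 (SE 0.71, edgeR adjusted p = 1.36e-08) and 2.72 (SE 0.53, edgeR adjusted p = 0.00139). That fit has 4 libraries and 1 residual degree of freedom. Its p-values therefore rest largely on a variance shared across genes, and little on the spread between libraries. Heat replicates 7 and 8 were also high in these 3 genes. With all 28 libraries scaled together they held 88.2 and 129 CPM of FL81_12212, 24.9 and 31.2 CPM of FL81_22811, and 38.3 and 61.8 CPM of FL81_01123. Heat replicates 1 to 6 held at most 1.92 CPM of FL81_12212 and of FL81_22811 and at most 7.87 CPM of FL81_01123.

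**Figure D5:**
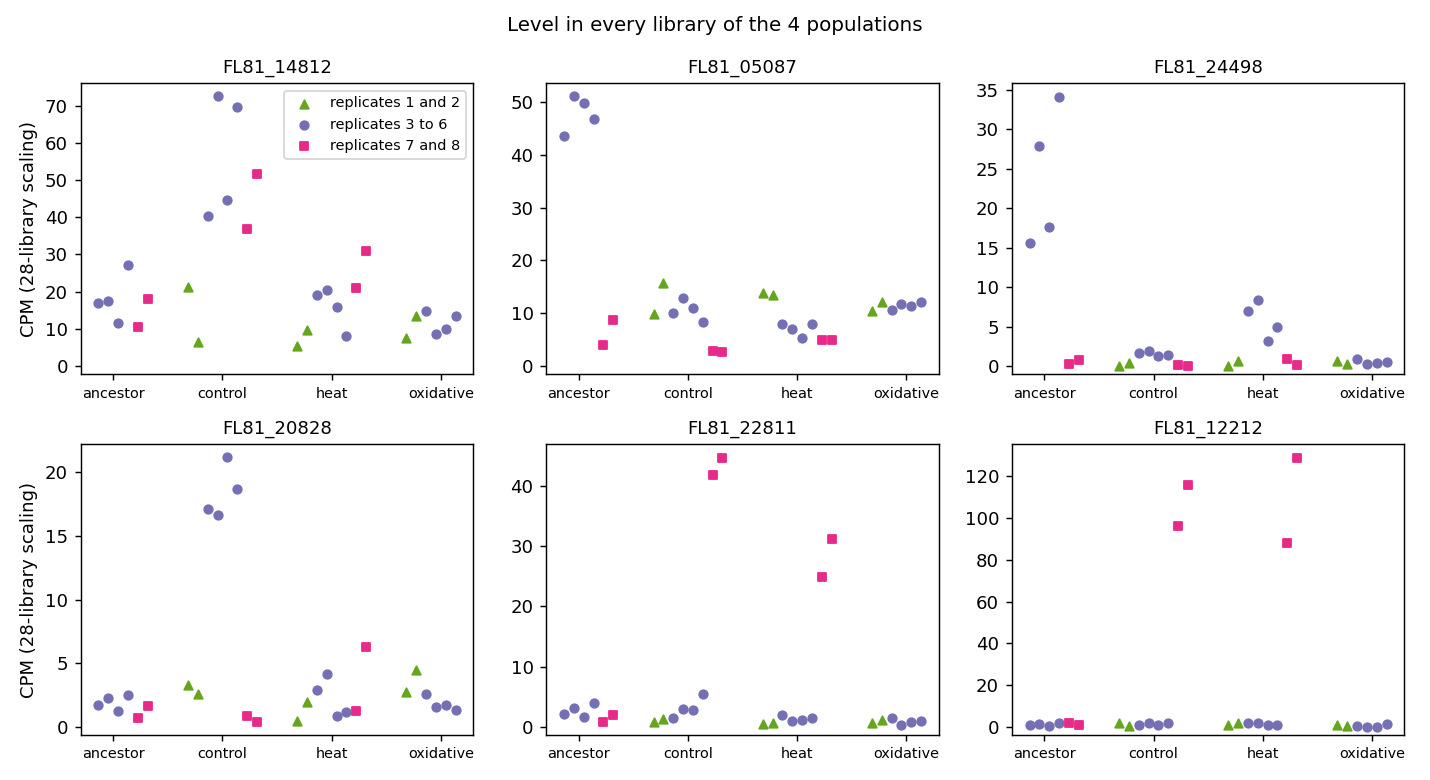
CPM of 6 genes in each of the 28 libraries by population, with triangles for replicates 1 and 2, circles for 3 to 6 and squares for 7 and 8. FL81_05087 and FL81_24498 are high in ancestor replicates 3 to 6, FL81_20828 in control replicates 3 to 6, and FL81_22811 and FL81_12212 in replicates 7 and 8 of control and heat larvae.

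Levels in the heat and oxidative populations, which share the ancestor and the control libraries with the comparisons below, differed by gene. A fit of all 28 libraries called 0.41% of 11952 genes between heat larvae and the ancestor and 5.55% between oxidative larvae and the ancestor, and 0.761% and 14% when each was set against the control (edgeR). In that fit the log2 difference of FL81_14812 from the ancestor was 1.36 (SE 0.35, edgeR adjusted p = 0.252) in control, -0.01 (SE 0.35) in heat and -0.57 (SE 0.38) in oxidative larvae. Heat and oxidative larvae both lay below the control in this gene (-1.36 and -1.93, edgeR adjusted p = 0.0361 and 0.000632). FL81_05087 was below the ancestor in heat larvae (-2.13, SE 0.42, edgeR adjusted p = 0.0103) and in oxidative larvae (-1.57, SE 0.44, edgeR adjusted p = 0.0286), at 4.86 to 13.8 and 10.4 to 12.2 CPM. These differences lay in ancestor replicates 3 to 6, since ancestor replicates 7 and 8 held 4.05 and 8.64 CPM on that scaling, below every oxidative library and below or among the heat libraries. The control value in that fit was -1.94 (SE 0.41, edgeR adjusted p = 0.0531). FL81_17361 was below the ancestor in oxidative larvae (-1.77, SE 0.43, edgeR adjusted p = 0.0119), and the values for heat and control were -1.59 (SE 0.41, edgeR adjusted p = 0.0834) and -1.23 (SE 0.39, edgeR adjusted p = 0.677). Its control replicates 1 and 2 held 14.8 and 15.7 CPM, above the other control libraries. Ancestor replicates 3 to 6 held the 4 highest levels of FL81_05087 among all 28 libraries.

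The fit of all 28 libraries without a block called 8 of 11952 genes between control and ancestor (0.0669%), and none of these was among the 3. FL81_20368 (edgeR adjusted p = 0.0102) and FL81_24805 (0.0314) were among the 8. Heat and oxidative larvae differed from the ancestor by -0.12 (SE 0.13) and -0.07 (SE 0.14) in FL81_20368. In FL81_24805 the values were -0.28 (SE 0.23) and -0.09 (SE 0.24). Both populations lay above the control in FL81_20368 (edgeR adjusted p = 0.00514 and 0.000455) and in FL81_24805 (edgeR adjusted p = 0.0432 and 0.00208). Of the 8, 6 were abundant enough for the test of 12 libraries. All 6 had the same direction there and an unadjusted p under 0.05, but their adjusted p lay between 0.140 and 0.631 (edgeR), and 2 had one direction in all 6 pairs.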

How the data were processed

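Raw read counts per gene identifier, 1 table per library, were deposited by the authors. GSNAP and HTSeq are named in the submitters' processing notes. Of the genome build, annotation and strand use, nothing is given in the sources used here. Overlapping genes on opposite strands can therefore share reads, and near-identical copies can lose them. The 5 summary lines of each table entered neither library sizes nor tests.

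Genes were kept by filterByExpr (minimum count 10), scaled by TMM and tested in R 4.3.3 with edgeR 4.0.16 (quasi-likelihood, replicate number as a block, Benjamini-Hochberg adjustment over all genes tested, threshold 0.05). In the fit of all 6 pairs the filter drops genes that reach 1.79 CPM in fewer than 6 libraries. The cutoff was 2.04 CPM in 4 libraries for replicates 3 to 6, and 0.760 CPM in 2 libraries for replicates 7 and 8. Each standard error and 95% interval was derived from the F statistic of the log2 fold change. Levels are TMM-scaled CPM, and log2 CPM used a prior count of 2. The fit was tested on simulated data. DESeq2 1.42.0, limma 3.58.1 and sva 3.50.0 served the alternatives.

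Genes named were the 2 largest rises and 2 largest falls past the threshold with at least 1 log2 CPM and 1 direction in all 6 pairs, filled up by smallest p in that direction, the 2 smallest interaction p, and FL81_20368 and FL81_24805. FL81_20828, FL81_17333, FL81_24498, FL81_16508 and FL81_12212 fall outside this rule and were chosen after seeing their values. The members, lists and rules were chosen with earlier results of these data known. Gene lists fixed by name had no matching identifier and were not counted. All 30 pairs of libraries within a population differed beyond sampling noise (chi-square per degree of freedom 4.98 to 108). None was thus a repeat sequencing of another, and each was treated as 1 sample. The differences do not show that the libraries came from separate cultures.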

Additional observations from a re-analysis of the deposited data

Results flagged for a closer look

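The difference between control and ancestor larvae differed between replicates 7 and 8 and replicates 3 to 6 for FL81_22811 (4.87 log2 units) and FL81_01123 (3.08 log2 units), by a test of that difference itself. The replicate classes of that test were drawn from these same data. Among 48 sets of 6 or 8 libraries examined for 1 library far from the rest, 5 had one, where chance gives about 1 in 20. The level of FL81_06792 in control replicate 7 was 13.1 CPM, and the next control library held 7.28 CPM. In the oxidative population FL81_17361 stood at 3.04 CPM in replicate 5, below the next at 5.22 CPM, and FL81_20368 at 135 CPM in replicate 3, above the next at 106 CPM. Ancestor replicate 8 had 15755610 gene counts, and the next ancestor library 6887393. Control replicate 3 had the highest share of low-quality alignments in its population, 0.00045% of reads.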

How the results depend on the processing

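The replicate numbers did not meet the criterion for pairing. Deviations of same-numbered libraries from their population means correlated between -0.08 and 0.47 across genes, and 4 of 12 libraries correlated best with their own number. Ancestor replicate 8 correlated most with control replicate 7 (0.72) and ancestor replicate 7 with control replicate 8 (0.54). Same-numbered libraries were thus not shown to be matched, although the block lowered the spread. The median SD of a gene's paired differences was 0.48 log2 units, against 0.56 if the libraries are taken as unpaired. The block also takes up the division between replicates 3 to 6 and replicates 7 and 8. FL81_05087 and FL81_17361 were called with the block but not without it (edgeR adjusted p = 0.671 and 0.631), at log2 differences of -2.13 and -1.67. The count of 3 genes held with DESeq2 size factors, limma-voom and robust moderation. It was 2 with the unaligned share as a covariate, where FL81_17361 was lost (edgeR adjusted p = 0.0605), and 1 without the replicate block. Without the block and with control replicates 1 and 2 added it was 1, but that gene was FL81_06792 (edgeR adjusted p = 0.0159), not one of the 3. Without the block in all 28 libraries it was 8, with none of the 3 among them. The count was 65 in replicates 3 to 6 alone, 36 with DESeq2 and the block, and 90 without a filter on low counts. Chosen after seeing the data, surrogate variables without the block gave 130 genes, and limma-voom with sample weights gave 255. Leaving out 1 replicate number or 1 library gave between 1 and 15 genes, with 15 without ancestor or control replicate 7, 7 without ancestor replicate 8, 9 without control replicate 8, 6 without control replicate 6 and 1 without ancestor replicate 4 or 6. The 2 interaction genes became 6 without the replicate block, 13 with DESeq2, 30 without a filter, and between 0 and 22 without 1 replicate number. FL81_14812 passed under 29 of 32 alternatives and in 18 of 18 fits with libraries left out, FL81_05087 under 18 and FL81_17361 under 17 of 32, each with 1 direction throughout. These alternatives are not separate checks. With the block, a library without its partner does not bear on the difference. The 12 fits without 1 library therefore nearly repeat the 6 fits without 1 replicate number. The difference of FL81_01123 over all pairs reversed in replicates 3 to 6 alone (-0.30, edgeR adjusted p = 0.908). No library measure passed the unpaired exact permutation test after adjustment (smallest adjusted p = 0.658). Without 1 replicate number, the paired difference in gene counts ranged from -1801260 to 924119, that in reads outside genes from -0.0386 to 3.08 percentage points and that in ambiguous reads from -0.0920 to 0.0697, each with changes of sign. Genes under about 1 CPM rest on few reads in the shallower libraries.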

Other observations

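In 3 genes reads were counted in all 6 ancestor libraries and in none of the 6 control libraries, with totals of 6, 10 and 13 counts, and no gene had the reverse pattern. At such totals the difference lies near the limit that a count of 0 allows. Of genes counted in 1 population and not in the other, 1181 were counted in the ancestor and 792 in the control, with at most 20 and 14 counts in all. Control replicates 7 and 8 were at least 2-fold above all the other libraries of the 12 in 10 of 10972 genes and below them in 4 (0.3 CPM added). The same counts were 5 and 1 for ancestor replicates 3 to 6, 2 and 1 for control replicates 3 to 6, and 0 and 0 for ancestor replicates 7 and 8.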
